A study of Rattus norvegicus with 10 samples.

Results

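The comparison described here is that of d 9 whey with d 2 whey in lactating rats. Its members are the arrays whose sample titles name d 2 milk mRNA (3 arrays) and d 9 milk mRNA (3 arrays), 6 of the 10 arrays of the series. All 6 came from 3 dams of the inbred strain F344/N, and the titles number each dam on both days. Milk was taken by hand after the dams had been kept from their litters and given oxytocin under light anaesthesia, and RNA was purified from the whey left after centrifugation, without any treatment or genetic change in either group. From each whey 100 ng of total RNA was labelled with Cy3 and hybridised to a single-colour Agilent array of the rat transcriptome. The remaining arrays hold d 16 whey of the same dams and a serum pool.

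Whey is the watery part of milk that remains when fat and cells are removed. RNA in whey is known to travel in small vesicles and other particles shed by cells of the gland. Around parturition the alveolar epithelium finishes its last divisions and closes its tight junctions, after which the output of caseins, lactose, fat and minerals increases toward mid lactation. Milk also carries macrophages, granulocytes and lymphocytes, and early milk is rich in immune proteins.

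Signals are given as log2 of the quantile-normalized signal, so that a difference of 1 is a doubling, and a change is the mean of d 9 minus the mean of d 2. A probe was tested where it was well above background on at least 1 whey array, and it was called where the limma adjusted p was under 0.05. Each gene named or listed is represented by 1 probe, the one well above background on the most arrays. Some genes are in more than 1 list. For the mitochondrial chromosome every tested probe is counted. Of 16849 tested probes, 2969 were called (17.6%), 1897 of them higher on d 9 (11.3%) and 1072 lower (6.36%). The called falls were the larger changes, with a median of -1.06 against 0.92 for the rises. The median change of all tested probes was 0.11.

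These values describe the make-up of the RNA, since every array received the same mass of RNA and the arrays were put on a common distribution. With the arrays scaled to the spike-in control probes instead, the median of all tested probes was 1.53, a 2.88-fold higher signal on d 9, and 99.1% of 7085 calls were rises (41.7% of all tested probes higher and 0.398% lower). All 1897 called rises kept their direction on that scale, while 345 of the 1072 called falls (32.2%) stayed below 0. Falls are therefore relative to the other transcripts of the same whey, and each direction that turned with the spike-in scale is named beside its gene. The geometric mean of the spike-in signals was 8894 to 10306 on d 2 and 7131 to 9069 on d 9, and the 75th percentile of the processed signal was 12.5 to 28 on d 2 and 21.2 to 83.2 on d 9. The d 9 whey of dam 3 was the brightest array.

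The d 2 arrays of dams 1 and 2 were on 1 slide, and the d 2 array of dam 3 shared a second slide with all 3 d 9 arrays. With slide as a block, the contrast rests on the second slide, and 498 probes were called (2.96%), 235 higher (1.39%) and 263 lower (1.56%), so that rises made up 47.2% of calls rather than 63.9%. Of these, 352 were among the 2969. The whey label was checked against marker genes. All 14 mammary epithelial markers were well above background on each of the 6 arrays. Their summed signal was 703000 to 737000 on d 2 and 677000 to 915000 on d 9. That sum does not show single genes. By limma 4 of the 14 were lower on d 9 and none higher (28.6% lower against 6.36% of all probes), with a median of -0.11. With slide as a block 1 was lower, and with spike-in scaling 3 were higher and none lower. None of 14 liver markers passed the filter.

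Among genes with signal well above background on all 6 arrays, the 15 largest rises and 15 largest falls took in milk proteins, transporters, transcription factors and metabolic enzymes. Csn1s2b, a calcium-sensitive casein at chr14:21782246-21785778 of the rn4 build, read 9.24, 9.3 and 9.66 on d 2 (dams 1 to 3) and 13.55, 13.78 and 13.24 on d 9. The days did not overlap, and the gene was 17.5-fold higher on d 9 (change 4.13, SE 0.2, limma adjusted p = 0.000403). Susd3, a sushi-domain membrane protein, rose by 3.68 (SE 0.29), and Pcp4, a calmodulin-binding protein, rose by 3.62 (SE 0.26).

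Tf encodes the iron carrier transferrin and lies at chr8:108219377-108219436. It read 14.71, 14.46 and 13.69 on d 2 and 9.92, 9.89 and 10.29 on d 9, which was 19.1-fold lower (change -4.26, SE 0.28, limma adjusted p = 0.000492). Every d 9 value was far below every d 2 value, and the change remained below 0 with spike-in scaling at -2.73. Sh2d5, an adaptor with an SH2 domain, had the largest fall among genes well above background on all 6 arrays, at -4.49 (SE 0.38). Ass1, the argininosuccinate synthase of the urea cycle and of arginine synthesis, read 9.91, 10.39 and 10.16 on d 2 and 6.13, 6.32 and 6.87 on d 9, 13.1-fold lower.

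Spdef, an ETS-family transcription factor of secretory epithelia, read 7.6, 7.45 and 7.69 on d 2 and 3.62, 3.93 and 4.08 on d 9, a change of -3.7 (SE 0.36, limma adjusted p = 0.00171). Crabp2, which carries retinoic acid to its receptors, changed by -3.23 (SE 0.2) and the chaperone clusterin (Clu) by -3.34 (SE 0.28). Among the larger rises were 2 membrane proteins of epithelia, the Na,K-ATPase regulator Fxyd3 (2.23, SE 0.14) and the transcytosis protein Mal2 (1.87, SE 0.15). All genes named with an SE in this and the foregoing accounts of leading genes were also called with slide as a block, with limma adjusted p from 0.000672 for Csn1s2b to 0.0194 for Spdef.

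**Figure D1:**
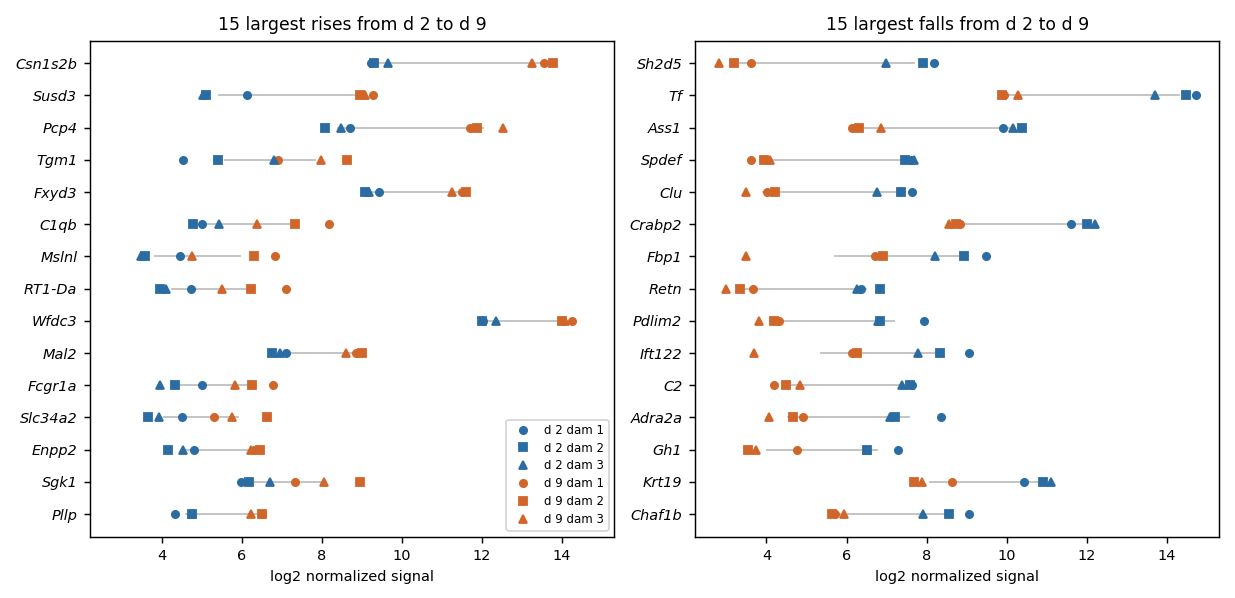
Log2 normalized signal (x axis) of the 15 largest rises (left) and 15 largest falls (right) among genes well above background on all 6 arrays, with blue for d 2, orange for d 9, a symbol for each dam, and a grey line joining the means of the days. The 3 values of each day do not overlap for any of the 30 genes, which was a condition of the choice, and Csn1s2b and Sh2d5 lie at the ends with changes of 4.13 and -4.49.

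Some of these 30 calls rested on single arrays. Tgm1, Mslnl, Fbp1 and Gh1 each lost the call when any 1 of 3 or 4 of the 6 arrays was left out, with limma adjusted p up to 0.124, 0.104, 0.107 and 0.0709. RT1-Da lost it without d 2 dam 2 or d 9 dam 2 (adjusted p up to 0.061), and Sgk1 and Ift122 lost it without d 2 dam 1 or d 2 dam 2 (limma adjusted p up to 0.0611 and 0.0694). For Pdlim2 and Ift122, 1 of 2 tested probes was called.

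Of 5 caseins tested, 1 was higher on d 9, Csn1s2b (20% against 11.3% of all probes), and the other casein transcripts did not pass the test. Caseins form the micelles that carry calcium phosphate in milk, and their promoters are known targets of prolactin through STAT5. Csn2 (beta-casein) read 16.34, 16.27 and 16.09 on d 2 and 17.09, 16.91 and 16.47 on d 9, a change of 0.59 (limma adjusted p = 0.061, and 0.024 without the d 9 whey of dam 3). For Csn3 (kappa-casein) the change was 0.38 (adjusted p = 0.222, and 0.032 without that same array).

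Csn1s1 sat at the highest value that quantile normalization can give, 18.04, on 5 of the 6 arrays and at 16.88 in the d 9 whey of dam 3. Such tied values have no order, so the change of -0.39 (limma adjusted p = 0.393) is bounded by the scale. Lalba, which encodes the alpha-lactalbumin subunit of lactose synthase, changed by 0.03 (limma adjusted p = 0.937), and Wap (whey acidic protein) by 0.39 (0.142, and 0.0195 without the d 9 whey of dam 1).

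The casein promoters show how alike the family is upstream of the start. RefSeq promoters of the GRCr8 build were searched on both strands, over the 250 bases before the start, for the letters TTCNNNGAA, a spaced palindrome that STAT5 is known to bind. It was present in 4 of the 5 casein promoters, in 7.52% of all 27457 promoters used and in 6.11% of the 6647 promoters of tested genes. The stretch from 140 to 81 bases before the start is shown for these 4 genes, with the match in capitals, because the gene that rose and 3 that were not called share it.
Csn1s2b, chr14:20545699-20545758, minus strand: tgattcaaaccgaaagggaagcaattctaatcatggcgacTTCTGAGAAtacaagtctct
Csn1s1, chr14:20638930-20638989, minus strand: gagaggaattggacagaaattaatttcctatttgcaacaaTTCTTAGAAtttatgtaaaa
Csn1s2a, chr14:20574552-20574611, minus strand: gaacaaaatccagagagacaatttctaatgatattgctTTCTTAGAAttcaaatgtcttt
Csn2, chr14:20601684-20601743, plus strand: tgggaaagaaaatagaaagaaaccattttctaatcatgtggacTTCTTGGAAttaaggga
A match is a description of the letters, and binding was not measured.

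Whey proteins moved one by one. Their list also held the casein Csn1s2b, so its rise is counted in both lists. Of 15 members tested, 4 were higher, Csn1s2b among them, and 2 lower on d 9. These are 26.7% and 13.3%, against 11.3% and 6.36% of all probes, with a median change of 0.09. Of the 12 members well above background on all 6 arrays, 2 were higher and 2 lower. Wfdc3, a protein with a WAP-type core, read 12.02, 12.01 and 12.36 on d 2 and 14.25, 13.99 and 14.08 on d 9 (change 1.98, SE 0.17, limma adjusted p = 0.00103), and the days did not overlap. Pthlh, parathyroid hormone-related protein, which mobilises maternal bone calcium in lactation, rose by 2.32 (SE 0.32, limma adjusted p = 0.00476), and its d 2 signal was well above background on 1 of 3 arrays. Wfdc2, a relative of Wfdc3, changed by -1.39 (SE 0.22), which turned to 0.03 with spike-in scaling.

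Of the metabolic lists examined, lactose synthesis had the highest share of falls. Of its 12 tested members, 6 were lower and 1 was higher on d 9 (50% and 8.33%, against 6.36% and 11.3% of all probes). The list median was -0.5 (1 with spike-in scaling, which is -0.53 relative to all probes). Hk1, a hexokinase that phosphorylates glucose on entry, read 5, 5.81 and 5.71 on d 2 and 3.31, 3.87 and 3.54 on d 9, a change of -1.93 (SE 0.24, limma adjusted p = 0.00396). The days did not overlap, and the change was -0.62 with spike-in scaling. Galactokinase (Galk1, -1.41, SE 0.23), phosphoglucomutase (Pgm2, -1.27, SE 0.13) and glucose-6-phosphate isomerase (Gpi, -1.08, SE 0.13) were lower, and with spike-in scaling these turned to 0.04, 0.2 and 0.38.

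B4galt1, the galactosyltransferase that joins alpha-lactalbumin in lactose synthase, moved the other way. It read 6.12, 5.56 and 5.34 on d 2 and 7.01, 7.7 and 7.23 on d 9, higher by 1.64 (SE 0.26, limma adjusted p = 0.00745 and 0.0395 with slide as a block). Both tested probes of the gene were called higher. With slide as a block, 3 of the 6 falls of the list stayed called (Hk1, Pgm2 and Gpi).

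In glycolysis and the pentose phosphate pathway, 5 of 22 members were lower and 2 higher (22.7% and 9.09%, against 6.36% and 11.3% of all probes). The lowest change of the list, -1.93, was that of Hk1, which is also counted under lactose synthesis, so the falls of these lists overlap. On leaving out each array in turn, 5 falls were called. The count of rises went to 0 without d 2 dam 2 and to 1 without any of the others. Enolase (Eno1) read 12.4, 12.73 and 12.62 on d 2 and 11.43, 11.44 and 11.77 on d 9 (-1.04, SE 0.16), and lactate dehydrogenase A (Ldha) changed by -0.91 (SE 0.15). Both turned with spike-in scaling, to 0.47 and 0.58. The median of the list was -0.19.

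Lipid genes split. In fatty acid and triglyceride synthesis 4 of 25 members were higher and 3 lower (16% and 12%, against 11.3% and 6.36% of all probes). The list median was 0.1 beside 0.11 for all probes. Without d 2 dam 2 or d 9 dam 2, 2 of these rises and 1 of these falls were called, and 1 fall was called without d 2 dam 3. Cd36, a fatty acid transporter, read 8.1, 7.49 and 7.53 on d 2 and 9.38, 9.08 and 8.74 on d 9 (1.36, SE 0.23, limma adjusted p = 0.00892), and Insig1, which restrains the sterol-regulated SREBP factors, rose by 1.33 (SE 0.18) with all 4 of its probes called. Olah, the thioesterase that ends fatty acid chains early to give the medium-chain acids of rodent milk, read 12.42, 12.83 and 12.37 on d 2 and 11.31, 10.68 and 11.3 on d 9 (-1.44, SE 0.21), and turned to 0.07 with spike-in scaling. None of these lipid genes was called with slide as a block (limma adjusted p from 0.0522 to 0.0861).

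Of 19 tested genes of calcium, phosphate and zinc handling, 8 were higher on d 9 and none lower by limma (42.1% higher against 11.3% of all probes), with a median of 0.73. At an unadjusted p under 0.05, 10 were higher and none lower, and by the adjusted Tukey-Kramer test 4 were higher and none lower. Among the 14 members well above background on all 6 arrays, 6 were higher and the median was 0.47. The 3 d 2 medians of the list, taken per array as deviations from each probe's mean, were -0.3, -0.26 and -0.38, and the d 9 medians were 0.34, 0.43 and 0.14, so the days did not overlap. The list median was 2.07 with spike-in scaling, 0.54 above all probes, 0.75 with slide as a block, where 2 members were called, and 0.23 with normexp background correction, a model-based subtraction after which an offset of 50 is added to each signal, where 9 were. Without the d 9 whey of dam 2, 5 members were called.

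Slc34a2, the sodium-phosphate cotransporter of secretory epithelia, read 4.52, 3.67 and 3.95 on d 2 and 5.32, 6.63 and 5.76 on d 9 (1.86, SE 0.34, limma adjusted p = 0.0118). The plasma membrane calcium pump Atp2b2, which exports calcium across the apical membrane, read 4.45, 4.04 and 4.42 on d 2 and 5.58, 5.95 and 5.6 on d 9 (1.4, SE 0.17, limma adjusted p = 0.00334, and 0.0453 with slide as a block). Slc30a2, the zinc transporter whose loss gives zinc-poor milk, was not well above background on any d 2 array and was on all 3 d 9 arrays, at least 2.53-fold higher (limma adjusted p = 0.0109). Its relative Slc30a4 rose by 1.17 (SE 0.24), a call lost without d 2 dam 2 or d 9 dam 2 (limma adjusted p up to 0.0567).

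Ion transporters and iron genes moved individually. Of 19 sodium, potassium and chloride transport genes, 4 were higher and 2 lower (2 and 2 without d 2 dam 2 or d 9 dam 2). These are 21.1% and 10.5%, against 11.3% and 6.36% of all probes. The water channel Aqp5 read 7.13, 7.06 and 6.71 on d 2 and 4.8, 4.72 and 4.29 on d 9 (-2.36, SE 0.23, limma adjusted p = 0.00182), and remained at -0.98 with spike-in scaling. Opposite to transferrin, the ferritin light chain Ftl1 was higher on d 9 by 1.18 (SE 0.14, limma adjusted p = 0.00349) with all 4 probes called, and the iron exporter Slc40a1 (ferroportin) rose by 1.17 (SE 0.23, limma adjusted p = 0.0153, and 0.0589 without d 9 dam 2).

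Arginine and polyamine enzymes included both the deep fall of Ass1 and several rises. Of 17 tested, 7 were higher and 2 lower (41.2% and 11.8%, against 11.3% and 6.36% of all probes), with a median of 0.39. With 1 array left out, 3 to 6 of the rises were called (3 without d 9 dam 2 and 4 without d 2 dam 2). Of the 2 falls, 1 was called on leaving out any 1 array other than d 9 dam 3. Sat1, the spermidine acetyltransferase that starts polyamine breakdown, read 7.91, 8.63 and 8.51 on d 2 and 9.58, 9.81 and 9.82 on d 9 (1.39, SE 0.2, limma adjusted p = 0.00533). Azin1, the antizyme inhibitor that protects ornithine decarboxylase, rose by 1.05 (SE 0.18). Arginase 1 (Arg1) rose by 1.12 (SE 0.24, limma adjusted p = 0.0179, and 0.0667 without d 9 dam 2). Creatine kinase M (Ckm) was well above background on d 9 alone, at least 3.78-fold higher.

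**Figure D2:**
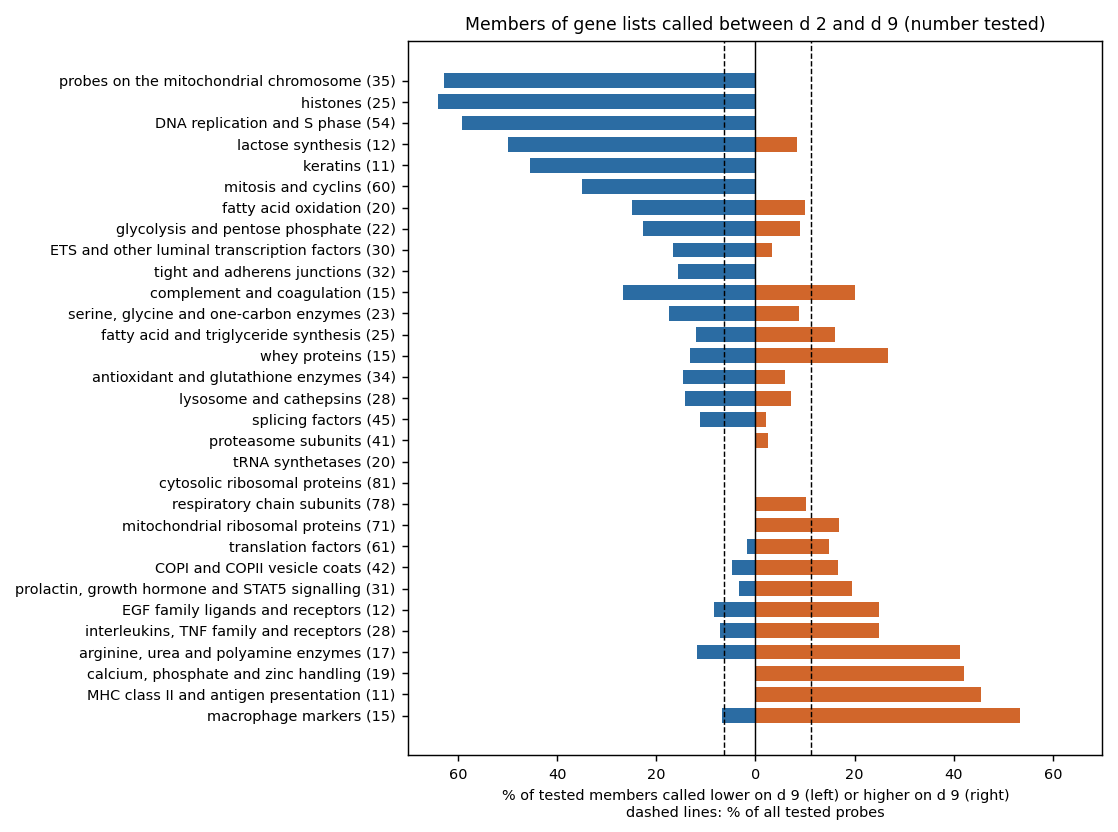
Percentage of tested members of each gene list called lower on d 9 (blue, left) or higher on d 9 (orange, right), with the number tested in brackets and dashed lines at the percentages of all tested probes, 6.36% lower and 11.3% higher. Histones (64%), the mitochondrial chromosome (62.9%) and DNA replication (59.3%) extend farthest to the left and macrophage markers (53.3%) farthest to the right. The mitochondrial bar counts probes, several of them on the same transcript, while the other bars count genes. The cytosolic ribosomal proteins and tRNA synthetases have no bar. Falls are given relative to other transcripts, and 32.2% of all called falls stayed below 0 with spike-in scaling.

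With quantile normalization, every call by limma among genes of cell division was a fall. The list of DNA replication and S phase had 54 tested members, of which 32 were lower and none higher (59.3% lower against 6.36% of all probes), with a median change of -1.2. Mitosis and cyclins had 21 lower and none higher of 60 (35% lower, median -1.05). Histones, which are made in S phase to package new DNA, had 16 lower and none higher of 25 (64% lower, median -0.78). At an unadjusted limma p under 0.05, 1 member of the first list and none of the other 2 lists was higher, and the Tukey-Kramer test, adjusted by Benjamini-Hochberg, called 13, 4 and 6 members lower and none higher. Because the arrays measure RNA released into whey, fewer dividing cells and less of these RNAs per cell could not be told apart.

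Chaf1b, a subunit of the factor that loads histones onto new DNA, read 9.05, 8.55 and 7.9 on d 2 and 5.71, 5.63 and 5.94 on d 9 (-2.74, SE 0.28, limma adjusted p = 0.0021, and 0.0139 with slide as a block). Mcm6, part of the replicative helicase, read 7.27, 6.67 and 6.24 on d 2 and 2.59, 3.97 and 4.32 on d 9 (-3.1, SE 0.56, limma adjusted p = 0.0109). Cdt1, which loads that helicase, changed by -2.63 (SE 0.34), and the other helicase subunits Mcm5 and Mcm7 by -2.03 (SE 0.36) and -1.55 (SE 0.25). On d 2 these genes were highest in dam 1 and lowest in dam 3, and on d 9 the dams lay closer together for Chaf1b, Mcm5 and Mcm7.

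Of mitotic genes, the kinesin Kif20a, needed for cell separation, read 7.74, 7.5 and 7.01 on d 2 and 5.59, 5.44 and 5.8 on d 9 (-1.81, SE 0.24, limma adjusted p = 0.00453). Mybl2, a transcription factor of the G2 and M genes, changed by -1.92 (SE 0.25) with both probes called. Among histones, Hist1h4b read 12.03, 11.74 and 11.22 on d 2 and 9.44, 9.37 and 9.58 on d 9 (-2.2, SE 0.21, limma adjusted p = 0.00151, and 0.00779 with slide as a block), with 1 of its 2 probes called, and histone genes of such similar sequence may share signal. The linker histone H1f5 changed by -2.49 (SE 0.39).

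The lists kept their negative medians with slide as a block (-0.82, -0.63 and -0.54), where 3, 3 and 1 members were called, and with normexp background correction (-0.48, -0.38 and -0.66), where 35, 37 and 16 were. With spike-in scaling the medians turned to 0.12, 0.37 and 0.71, which were 1.4, 1.16 and 0.82 below that of all probes, and 2, 1 and 0 members were called higher and 1, 0 and 0 lower. The single arrays mattered for the counts. Mitosis and cyclins had 5 to 26 members called with 1 array left out, the fewest without d 2 dam 2 and 8, 9, 11 and 13 without d 9 dams 1, 2 and 3 and d 2 dam 1. Histones had 5 to 16, with 5 without d 9 dam 2 and 7 without d 2 dam 2 or d 9 dam 3. DNA replication had 20 to 36, with 20 without d 2 dam 2 or d 9 dam 2. The d 2 medians of the DNA replication list were 1.04, 0.62 and 0.24 in dams 1, 2 and 3, and the first 2 of these were the arrays on the other slide.

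Some of the promoters of these genes held letters that such genes are known for. The letters TTTCCCGC, TTTCGCGC, TTTGCCGC and TTTGGCGC, which E2F factors are known to bind, were searched on both strands, and 10 of the 44 DNA replication genes with a RefSeq promoter held a match (22.7%), against 1.81% of all promoters and 3.43% of those of tested genes. Of the list's called members with a promoter, 5 of 25 did (20%). The letters TTTGAA, the core of the cell cycle homology region of late cell cycle genes, were in 21 of 46 promoters of mitosis genes (45.7%), against 16% of all and 10.5% of those of tested genes, and in 6 of the 16 called (37.5%). The letters CCAAT, also searched, were in 31 of 46 promoters of mitosis genes (67.4%) and in 21 of 44 of replication genes (47.7%). They were in 34.3% of all promoters and 36.9% of those of tested genes. Of the called members, 11 of 16 mitosis genes (68.8%) and 16 of 25 replication genes (64%) held CCAAT. The motifs were chosen after the values of these lists had been seen, and a match is no evidence of binding.

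Shown here are 60 bases around the match (80 for Cdk1, which has 2 separate matches) for genes lower on d 9, in GRCr8 with the motif in capitals, to let the E2F letters of the replication genes be set beside the TTTGAA of the mitotic ones. In Mcm6 the capitals cover 2 overlapping matches, 1 on each strand. The Cdk1 promoter also holds an E2F match, at -133 to -126 from the start, outside the bases shown. E2F letters were in 3 of 46 promoters of mitosis genes (6.52%) and in 2 of the 16 called (12.5%).
Mcm5, chr19:13488753-13488812, plus strand: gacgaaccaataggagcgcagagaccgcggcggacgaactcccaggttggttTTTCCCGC
Mcm6, chr13:42404453-42404512, minus strand: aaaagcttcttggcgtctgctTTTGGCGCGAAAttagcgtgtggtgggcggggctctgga
Mcm7, chr12:22163199-22163258, minus strand: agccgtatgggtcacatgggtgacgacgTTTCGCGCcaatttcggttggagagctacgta
Cdk1, chr20:19265213-19265292, plus strand: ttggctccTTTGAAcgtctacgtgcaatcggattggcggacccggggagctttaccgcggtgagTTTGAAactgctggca
Birc5, chr10:103572086-103572145, plus strand: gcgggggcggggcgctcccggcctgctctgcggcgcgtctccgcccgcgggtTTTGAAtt
Cdc20, chr5:137255820-137255879, minus strand: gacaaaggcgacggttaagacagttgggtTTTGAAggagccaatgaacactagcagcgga
Of the mitotic genes shown, Cdk1, the kinase that drives mitosis, changed by -1.6 (SE 0.36), the survivin gene Birc5 by -1.79 (SE 0.37), and Cdc20, which activates the anaphase ligase, by -1.07 (SE 0.23). Cdc20 turned to 0.42 with spike-in scaling. These 3 calls were lost without d 2 dam 2 (limma adjusted p = 0.0656, 0.0562 and 0.0614), and Cdk1 also without any of d 2 dam 1 and d 9 dams 1, 2 and 3 (0.0509 to 0.0597), and Cdc20 also without d 9 dam 1 or d 9 dam 2 (0.0554 and 0.0518).

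**Figure D3:**
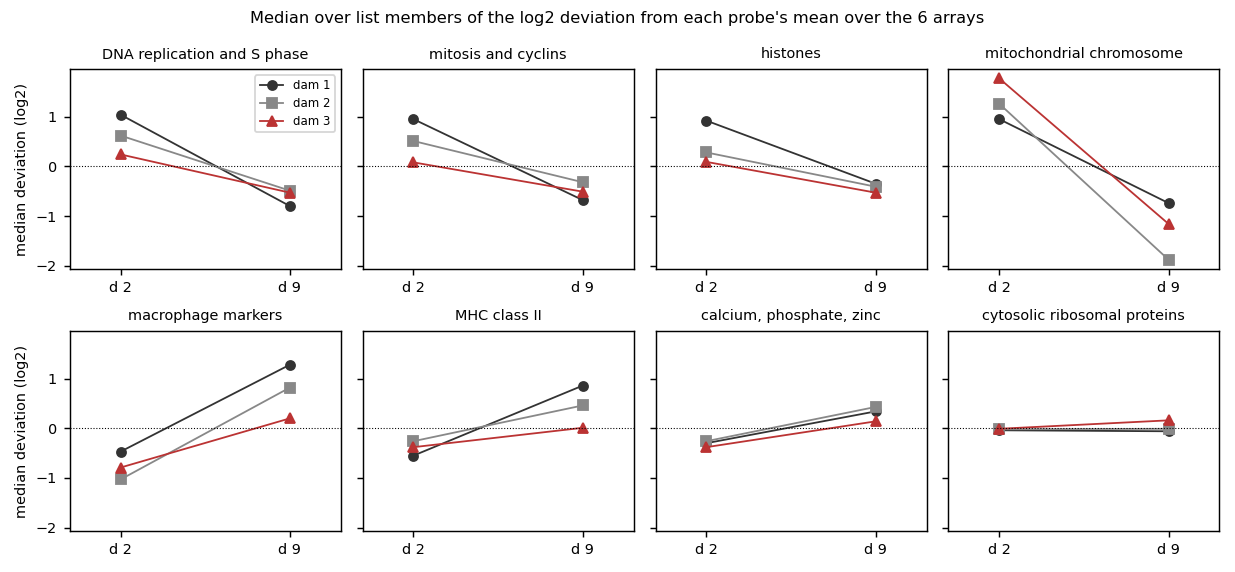
Median over the tested members of 8 gene lists of the log2 deviation from each probe's mean over the 6 arrays (y axis), on d 2 and d 9 (x axis), with a line for each dam. DNA replication, mitosis, histones and the mitochondrial chromosome slope down in all 3 dams, macrophage markers, MHC class II and mineral transport slope up, and cytosolic ribosomal proteins stay between -0.06 and 0.16; with spike-in scaling the medians of the replication, mitosis and histone lists turned above 0.

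Probes of the mitochondrial genome were called lower for 7 protein transcripts. The mitochondrial chromosome encodes core subunits of the respiratory chain and ATP synthase together with its own ribosomal and transfer RNAs, while all remaining parts of mitochondria are made from nuclear genes. Of the 47 probes placed on that chromosome in rn4, 35 were tested. Several lie on the same transcript or overlap, so the probes are not independent readings. Of the 35, 22 were lower on d 9 and none was higher (62.9% lower against 6.36% of all tested probes), with a median of -2.57. All 16 probes that name 7 mitochondrial protein transcripts were lower, by -3.87 to -1.87 (SE 0.44 to 0.58, limma adjusted p from 0.00639 to 0.0371), with no overlap between the days for any of the 16, against 14.6% of all tested probes.

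The probes are 60 bases long, and 3 of them are printed because they show which stretches of the transcripts gave the fall, with rn4 positions on the mitochondrial chromosome.
COX1, chrM:6402-6461: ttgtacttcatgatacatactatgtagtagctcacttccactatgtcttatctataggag
COX2, chrM:7585-7644: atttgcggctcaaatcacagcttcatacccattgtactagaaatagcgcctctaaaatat
CYTB, chrM:14965-15024: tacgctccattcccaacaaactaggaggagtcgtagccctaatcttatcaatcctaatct
The COX1 probe, for subunit 1 of cytochrome c oxidase, read 9.04, 9.52 and 10.2 on d 2 and 5.97, 4.85 and 6.33 on d 9, 14.6-fold lower (-3.87, SE 0.58, limma adjusted p = 0.00639). The COX2 probe, for subunit 2, read 11.72, 12.27 and 12.91 on d 2 and 9.62, 8.3 and 9.52 on d 9 (-3.15, SE 0.52, limma adjusted p = 0.00838). The CYTB probe, for cytochrome b of complex III, read 8.24, 8.75 and 9.34 on d 2 and 6.08, 5.09 and 6.05 on d 9 (-3.04, SE 0.51). In all 3 the d 2 value was highest in dam 3 and the d 9 value lowest in dam 2.

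In contrast to the medians of the division lists, that of these probes stayed below 0 with spike-in scaling. The COX1, COX2 and CYTB probes changed by -2.47, -1.61 and -1.63 with spike-in scaling, where COX1 stayed called (limma adjusted p = 0.00746) and COX2 and CYTB did not (0.0526 and 0.0509). The median of the 16 was -1.53 with spike-in scaling (range -2.47 to -0.59, 5 called lower) and -3.4 with slide as a block (4 called lower), and with 1 array left out 17 to 24 probes of the chromosome were called. Ahead of the first named protein gene, where the ribosomal RNA genes lie, 10 probes were tested and none was called (median -1.12, range -1.79 to 0.62, limma adjusted p from 0.0958 to 0.606), with 4 lower at an unadjusted p under 0.05 and none by the Tukey-Kramer test after adjustment. Of these 10, 1 was called lower with dam as a block (-1.32, limma adjusted p = 0.018) and another was called higher with spike-in scaling (1.9, limma adjusted p = 0.0294). By the Tukey-Kramer test 3 of the 35 probes of the chromosome were lower, and with normexp background correction 21 were, with a median of -1.02. A difference between these 10 and the 16 was not tested, and the sets were drawn after the values had been seen. Probes of the chromosome held 4.51%, 3.18% and 3.01% of the total signal on d 2 and 2.71%, 2.6% and 0.706% on d 9, the last in the brightest array. The brightest of them lie ahead of the first named protein gene, with d 2 means up to 16.97. The highest d 2 mean of the 16 probes was 12.3, so these shares say little about the protein transcripts.

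Nuclear genes of the respiratory chain and the mitochondrial ribosome had no call of a fall by limma in the fit over all 9 whey arrays. Of 78 nuclear respiratory chain subunits, 8 were higher and none lower (10.3% against 11.3% of all probes), with a median of 0.03, and 3 to 7 rises were called with 1 array left out (3 without d 9 dam 2, 4 without d 2 dam 2 and 5 without d 9 dam 1). Ndufa7, a subunit of complex I, read 6, 5.84 and 6.09 on d 2 and 6.49, 6.69 and 6.88 on d 9 (0.71, SE 0.13, limma adjusted p = 0.0122, and 0.15 with slide as a block). Of 71 mitochondrial ribosomal proteins, 12 were higher and none lower (16.9% higher, median 0.16). Mrpl34 was higher by 1.08 (SE 0.15), with 1 of its 2 probes called. With 1 array left out, 5 to 9 were called (5 without d 2 dam 2 or d 9 dam 2 and 7 without d 2 dam 1 or d 9 dam 3). At an unadjusted p under 0.05, 4 respiratory chain subunits and 1 ribosomal protein were lower, none of either list was by the adjusted Tukey-Kramer test, 2 subunits and 1 ribosomal protein were lower with normexp background correction, and 1 subunit was lower without d 9 dam 3. Fatty acid oxidation, also in mitochondria, had 5 of 20 lower and 2 higher (25% and 10%, against 6.36% and 11.3% of all probes). The list median was -0.26, with 0 falls called without d 2 dam 2 or d 9 dam 2 and 1 without d 2 dam 3 or d 9 dam 1.

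**Figure D4:**
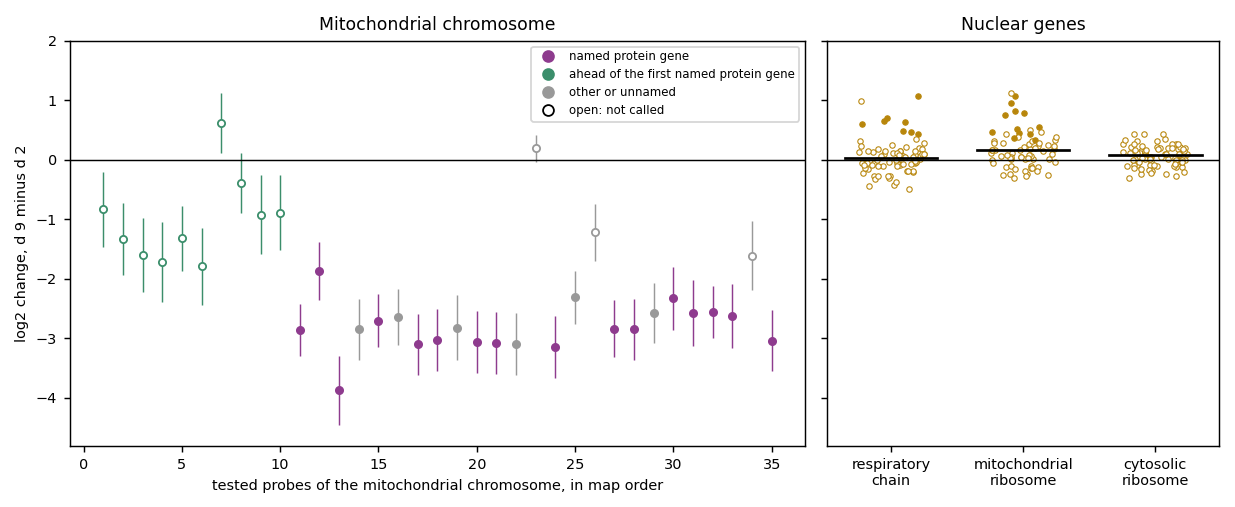
Log2 change from d 2 to d 9 (y axis) of the 35 tested probes of the mitochondrial chromosome in map order, with bars of 1 SE (left), and of nuclear genes of the respiratory chain, mitochondrial ribosome and cytosolic ribosome with black lines at the list medians (right). Filled points were called. The 16 probes of named protein genes (purple) lie between -3.87 and -1.87, while the nuclear medians are 0.03, 0.16 and 0.08.

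Ribosomal proteins and tRNA synthetases had no calls, and translation factors and vesicle coats were called about as often as all probes. None of 81 cytosolic ribosomal proteins was called by limma, with a median of 0.08 and array medians of -0.04, -0.02 and -0.01 on d 2 and -0.06, -0.01 and 0.16 on d 9, although 5 were higher and 2 lower at an unadjusted p under 0.05, 1 was higher and 1 lower by the adjusted Tukey-Kramer test, and with normexp background correction 8 were higher and 1 lower. None of 20 tRNA synthetases was called (median -0.01, 1 lower at an unadjusted p under 0.05, none by the Tukey-Kramer test and 3 lower without d 9 dam 3), and 1 of 41 proteasome subunits was (median -0.05). Translation factors had 9 higher and 1 lower of 61 (14.8% and 1.64%, against 11.3% and 6.36% of all probes). In the secretory pathway, vesicle coats had 7 higher and 2 lower of 42 (16.7% and 4.76%), and ER translocation and N-glycosylation had 5 higher and 2 lower of 37 (13.5% and 5.41%). With 1 array left out, the rises of these 3 lists went to 2 to 7, 2 to 7 and 0 to 6, the fewest without d 9 dam 2 for translation factors and without d 2 dam 2 for the other 2 lists.

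Macrophage markers had a median change of 1.68. Of 24 such genes, 23 had a probe and 15 were tested, of which 8 were higher and 1 was lower on d 9 (53.3% higher against 11.3% of all probes). At an unadjusted p under 0.05, 10 were higher and 2 lower, and 1 rise passed the adjusted Tukey-Kramer test. C1qb, a chain of the complement recognition protein that tissue macrophages make, read 5.02, 4.79 and 5.43 on d 2 and 8.18, 7.33 and 6.39 on d 9 (2.22, SE 0.41, limma adjusted p = 0.0116), and C1qa rose with it (2.04, SE 0.34). The high-affinity IgG receptor Fcgr1a read 5, 4.34 and 3.96 on d 2 and 6.79, 6.26 and 5.83 on d 9 (1.87, SE 0.31). On d 9 the order was dam 1, dam 2, dam 3 for all of these genes.

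Aif1, an actin-binding protein of macrophages, rose by 1.73 (SE 0.31), and the signalling adaptor Tyrobp by 1.68 (SE 0.3). Cd14, the lipopolysaccharide co-receptor that epithelium also makes, was lower, at 7.76, 8.13 and 8.44 on d 2 and 6.49, 7.16 and 6.07 on d 9 (-1.54, SE 0.38, limma adjusted p = 0.0295), a call lost without d 2 dam 2 or 3 or d 9 dam 1 or 3 (up to 0.0778). The summed signal of the 23 markers was 1200 to 1300 on d 2 and 1460 to 2930 on d 9. Of the defining markers, Cd163, Csf1r, Mrc1, Msr1, Marco, Mpeg1, Itgb2 and Spi1 were not well above background on any of the 6 arrays. The list median was 2.83 with spike-in scaling, 0.37 with normexp background correction (7 higher and 2 lower), and 1.49 with slide as a block, where 1 member was called, Fcgr1a (limma adjusted p = 0.0359).

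MHC class II genes, through which professional antigen-presenting cells show peptides to helper T cells, had 5 of 11 tested members higher and none lower by limma (45.5% higher against 11.3% of all probes, median 0.72), and 1 was lower at an unadjusted p under 0.05. By the adjusted Tukey-Kramer test 2 were higher and none lower. RT1-Ba, RT1-Bb and RT1-Db2 were well above background on no d 2 array and on all 3 d 9 arrays, so they passed the filter through d 9, and of the 6 members well above background on all 6 arrays, 1 was higher and the median was 0.06. With slide as a block 1 of the 11 was called, RT1-Bb (limma adjusted p = 0.0358), and with normexp background correction the median was 0.24. The invariant chain Cd74 read 3.5, 3.85 and 4 on d 2 and 6.61, 5.78 and 5.15 on d 9 (2.06, SE 0.35, limma adjusted p = 0.00881). RT1-Bb and RT1-Db2, class II beta chains, were at least 2.52-fold and at least 1.94-fold higher, and class II genes of similar sequence may share signal. Dam 1 was again the highest on d 9 and dam 3 the lowest. The part of macrophage RNA in the class II values was not tested.

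Few markers of other blood cells passed the filter. Of 13 neutrophil markers, 6 were tested and none was called by limma, at an unadjusted p under 0.05 or by the Tukey-Kramer test, with a summed signal of 161 to 182 on d 2 and 112 to 291 on d 9. Of 24 lymphocyte markers with a probe, 8 were tested and 2 were higher (25% against 11.3% of all probes). Of the 5 tested markers well above background on all 6 arrays, 1 was higher. Cd3e, Cd4, Cd8a and Ptprc were not well above background on any of the 6 arrays. The summed signal of the 24 markers was 162 to 238 on d 2 and 229 to 429 on d 9.

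Of 6 tested genes of IgA induction and antibody transfer, 3 were higher on d 9 (50% against 11.3% of all probes, and 2 to 3 with 1 array left out). No fall was called by limma, and the changes ran from -1.72 to 1.16. At an unadjusted p under 0.05, 3 were higher and 1 lower. With 75th percentile scaling 3 were called higher and 1 lower, and 0 to 1 falls were called with 1 array left out. Of the 3 members well above background on all 6 arrays, 2 were higher. The list median was 0.79, and 0.76 with slide as a block. Ccl28, the epithelial chemokine that draws IgA plasma cells into the gland, read 8.63, 8.18 and 8.18 on d 2 and 9.21, 9.6 and 9.64 on d 9 (1.16, SE 0.18, limma adjusted p = 0.00704, and 0.0517 with slide as a block). Tnfsf13 (APRIL), which supports plasma cells, rose by 0.89 (SE 0.13). Pigr, the receptor that carries IgA into milk, read 4.48, 5.05 and 4.36 on d 2 and 5.66, 5.84 and 5.19 on d 9 (0.93, SE 0.26, limma adjusted p = 0.044), but was not called with dam as a block (0.0687) or on leaving out any of d 2 dam 1, d 2 dam 3, d 9 dam 1 and d 9 dam 2 (up to 0.136). The T cell chemokine Ccl5 rose by 1.94 (SE 0.35) and was not called with slide as a block. Of 20 chemokines and receptors tested, 3 were higher and none lower (15% higher against 11.3% of all probes). Of the 3 well above background on all 6 arrays, 1 was higher.

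Complement genes moved in both directions. Of 15 complement and coagulation genes tested, 4 were lower and 3 higher (26.7% and 20%, against 6.36% and 11.3% of all probes). The largest rise, 2.22, was that of C1qb, which is also counted among the macrophage markers. Of the 11 members well above background on all 6 arrays, 4 were lower and 1 higher. C2, the second component, read 7.64, 7.57 and 7.39 on d 2 and 4.19, 4.49 and 4.84 on d 9 (-3.03, SE 0.32, limma adjusted p = 0.00235), and factor B (Cfb), its counterpart in the alternative pathway, read 7.61, 7.05 and 7.17 on d 2 and 5.35, 4.86 and 5 on d 9 (-2.2, SE 0.19, limma adjusted p = 0.00105). Both stayed called with slide as a block (0.0324 and 0.0141) and below 0 with spike-in scaling (-1.64 and -0.79). Outside complement, the TNF-family cytokine Tnfsf12 (TWEAK) changed by -2.51 (SE 0.32). Of 28 interleukins, TNF family members and receptors tested, 7 were higher and 2 lower (25% and 7.14%, against 11.3% and 6.36% of all probes). Of the 12 of these well above background on all 6 arrays, 3 were higher and none lower. With 1 array left out, 1 to 6 rises of that list were called.

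With quantile normalization, every call by limma among keratins and cell junction genes was a fall, while with spike-in scaling 1 keratin and 8 junction genes were called higher and 1 keratin lower. Of 11 keratins tested, 5 were lower and none higher (45.5% lower against 6.36% of all probes, median -0.8), 6 were lower and none higher at an unadjusted p under 0.05, 2 were lower and none higher by the adjusted Tukey-Kramer test, and 3 were called without d 2 dam 1, d 2 dam 2 or d 9 dam 2. Krt19, a keratin of luminal cells, read 10.44, 10.89 and 11.11 on d 2 and 8.64, 7.68 and 7.89 on d 9 (-2.75, SE 0.33, limma adjusted p = 0.00353, and 0.0275 with slide as a block). Krt8 and Krt18, the filament pair of simple epithelium, changed by -1.31 (SE 0.21) and -0.9 (SE 0.18), which turned to 0.19 and 0.65 with spike-in scaling. Of 32 junction genes, 5 were lower and none higher (15.6% lower against 6.36% of all probes). At an unadjusted p under 0.05, 9 were lower and 1 higher, and the adjusted Tukey-Kramer test called none either way. Among the falls were the claudins Cldn3 (-1.39, SE 0.35) and Cldn7 (-1.2, SE 0.22), which turned to 0.1 and 0.24 with spike-in scaling. Without d 2 dam 2 or d 2 dam 3, 1 junction gene was called, and without d 9 dam 2, 2 were, and Cldn3 lost its call without d 2 dam 1, 2 or 3 or d 9 dam 2 (limma adjusted p up to 0.0825).

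Among luminal transcription factors, 5 of 30 were lower and 1 was higher (16.7% and 3.33%, against 6.36% and 11.3% of all probes). There were 3 falls called without d 2 dam 1, d 2 dam 2 or d 9 dam 2. Etv5, an ETS factor that ERK signalling induces, read 7.19, 7.03 and 6.94 on d 2 and 4.89, 4.6 and 4.77 on d 9 (-2.3, SE 0.18, limma adjusted p = 0.00083, and 0.00938 with slide as a block). Sox4 changed by -1.88 (SE 0.3) with both probes called. Dusp6, the phosphatase that limits ERK and is itself an ERK target, read 9.68, 9.74 and 9.87 on d 2 and 7.1, 7.22 and 7.35 on d 9 (-2.54, SE 0.2, limma adjusted p = 0.000852). Spdef, Etv5 and Dusp6 all stayed below 0 with spike-in scaling (-2.39, -0.91 and -1.09).

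Of the ligands of the same pathway, Egf, the epidermal growth factor of milk, read 3.21, 2.77 and 3.46 on d 2 and 5.45, 5.37 and 5.41 on d 9 (2.27, SE 0.18, limma adjusted p = 0.000852, and 0.00603 with slide as a block). The d 9 values lay closer together than the d 2 values, and the d 2 signal was well above background on 1 of 3 arrays. The ERK inhibitor Spry2, not well above background on any d 2 array, was at least 2.39-fold higher on d 9 (limma adjusted p = 0.0166, 0.17 with slide as a block and 0.0633 without d 9 dam 2). Cish, a STAT5 target that restrains prolactin signalling, was not well above background on any d 2 array and was at least 2.29-fold higher on d 9. In the prolactin, growth hormone and STAT5 list 6 of 31 were higher and 1 lower (19.4% and 3.23%, against 11.3% and 6.36% of all probes). The list median was -0.11. Of its 22 members well above background on all 6 arrays, 3 were higher and 1 lower, with a median of -0.28. Of all 10005 such probes, 1118 were higher and 861 lower. The other rises of the list include Cish, which passed the filter through later arrays. In the whole list the rises went to 2 without d 2 dam 2 or d 9 dam 2 and to 3 without d 9 dam 1 or d 9 dam 3.

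Probes seen on 1 day alone were unevenly split, with 427 well above background on all 3 d 9 arrays and no d 2 array and 25 the reverse. The 25 included larger bounds. Nfatc2, a calcium-dependent transcription factor, read 8.25, 7.16 and 6.91 on d 2 and 1.63, 1.08 and 2.06 on d 9, at least 26.6-fold lower (limma adjusted p = 0.000579). Fam155a (at least 17.2-fold), the magnesium transporter relative Slc41a3 (at least 13.9-fold), the potassium-chloride cotransporter Slc12a4 (at least 11.2-fold) and Pdzd2 (at least 8.2-fold) were lower as well. All 5 stayed called with slide as a block and below 0 with spike-in scaling.

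On the d 9 side, the immunoglobulin receptor gene Fcgr2al1 was at least 6.22-fold higher (limma adjusted p = 0.0143), with 1 of its 2 probes called, and was not called with slide as a block (0.14) or with normexp background correction (0.117). The calcium-dependent kinase Camk2b was at least 4.16-fold higher, the inhibitory receptor Pilra at least 3.91-fold and Adap2 at least 3.75-fold, and these 3 stayed called in both settings. Camk2b read 0.92, 1.78 and 1.23 on d 2 and 5.32, 5.53 and 5.71 on d 9 (limma adjusted p = 0.000492, and 0.00348 with slide as a block). The unequal split goes with detection, as 8131 to 11450 probes were detected on the d 2 arrays and 10292 to 15585 on the d 9 arrays, and the part of that difference in these counts was not tested.

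**Figure D5:**
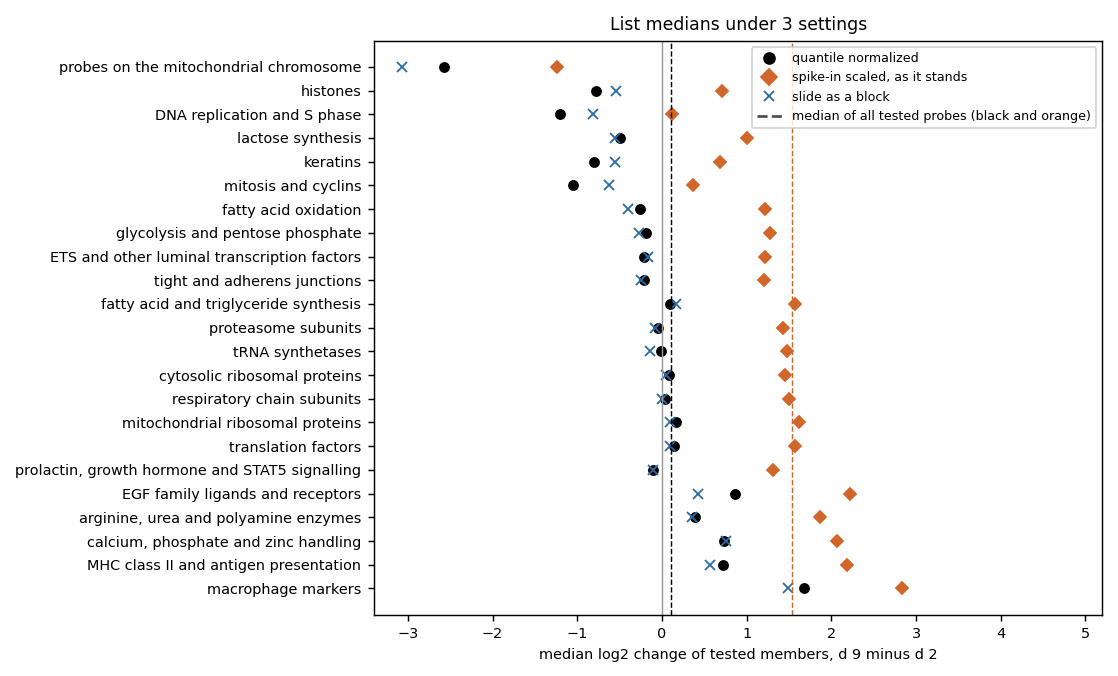
Median log2 change of the tested members of 23 gene lists (x axis) with quantile normalization (black), spike-in scaling (orange) and slide as a block (blue crosses), with dashed lines at the medians of all tested probes, 0.11 for quantile normalization and 1.53 for spike-in scaling. The spike-in medians lie to the right of the black ones throughout, only the mitochondrial chromosome stays below 0 on all 3 scales (-2.57, -1.24 and -3.07), and macrophage markers lie highest with quantile normalization and spike-in scaling, at 1.68 and 2.83.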

How the data were processed

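Total RNA from whey was labelled with Cy3 and read on single-colour arrays. The deposited files are the authors' scanner output (Agilent Feature Extraction 9.5.3.1), in which the processed intensity of each spot is already corrected for background. A series table of quantile-normalized values was not used, since its 10 columns match no sample label.

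Intensities of the 43379 spots that are not controls were put on a log2 scale and quantile normalized over the 10 arrays. The study's methods state quantile normalization, without naming the arrays it covered. Spots flagged as outliers were then left out, and the rest were averaged over spots of each of 41012 probes. Testing required a processed signal over 20, and a call of well above background, on at least 1 whey array. The contrast of d 9 with d 2 was fitted in limma 3.58.1 (R 4.3.3) over the 9 whey arrays, which share 1 estimate of the spread, with Benjamini-Hochberg adjustment and a threshold of 0.05. Probe symbols came from the files, and 16815 of 20503 RefSeq accessions were matched to the RefSeq table of GRCr8, which gave 3660 another symbol. Probe positions are those of the files (rn4), without annotation of exons, and promoter sequences are those of RefSeq in GRCr8. "At least" folds set the brighter day against the lowest signal well above background on each array of the other day, or the probe's own signal where that was higher. Spike-in scaling used the 9 spike-in control probes that were above background and not saturated on all arrays.

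The 3 dams of a day are separate animals, and the same dams gave both days, so the numbers in the titles pair the arrays. Deviations from the day means correlated at 0.17, -0.02 and 0.11 within dams and at -0.16 to 0.09 between dams. The day 2 and day 9 arrays share a scan day. The number of arrays limits the precision.

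The members and the gene lists were chosen with earlier results of these data known. Named genes are the 15 largest rises and falls among called genes well above background on all 6 arrays whose days do not overlap, up to 4 called members of each list by size, and the 5 largest bounds of each day. Atp2b2, Slc30a4, Azin1, Aif1, Tyrobp, C1galt1, the uncalled members given by value, the genes with printed promoters and the mitochondrial probes were chosen after their values had been seen. The statistics were tested on simulated data. Alternatives covered scaling, background correction, filters, outlier spots, the arrays fitted, dam and slide as blocks, the variance model, the Tukey-Kramer test of the study's methods and each array left out.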

Additional observations from a re-analysis of the deposited data

How the results depend on the processing

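Of 2969 probes changed, 1897 were higher and 1072 lower. With quantile normalization over the 6 arrays these counts were 1552, 960 and 592, with spike-in scaling 7085, 7018 and 67, with the 6 arrays alone in the fit 1602, 987 and 615, and with slide as a fixed block 498, 235 and 263. Array weights gave 4667 changed and 1851 lower, and the Tukey-Kramer test, adjusted by Benjamini-Hochberg, 1297, 899 and 398. Leaving out 1 array gave 1266 to 2718 changed, 789 to 1792 higher and 477 to 943 lower, with 1557 (1067 and 490) without d 2 dam 2 and 1266 without d 9 dam 2. The other alternatives kept the counts within 1.5 times. With dam as a replicate block, 3092 probes were called (1892 higher), and of the 132 genes and mitochondrial probes followed across settings, the calls of Tyms (limma adjusted p = 0.068) and Pigr (0.0687) were lost and no other call changed.

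Directions turned with spike-in scaling alone, for Cdc20 (0.42), Galk1 (0.04), Pgm2 (0.2), Krt8 (0.19), Krt18 (0.65), Cldn3 (0.1), Cldn7 (0.24), Olah (0.07), Gpi (0.38), Eno1 (0.47), Ldha (0.58), Ctsd (0.01) and Wfdc2 (0.03). That scale moves the median of all tested probes from 0.11 to 1.53. With slide as a block, 76 of the 132 were no longer called, as the contrast then rests on 1 d 2 array, and the day and the slide could not be told apart for the other 2 d 2 arrays. The probes well above background on all 6 arrays numbered 10005 of 16849, and for the rest the level on at least 1 array is only a bound.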

Other observations

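Single genes of O-glycan building, innate sensing and the circadian clock held further changes between the days. Of 32 Toll-like receptors and innate sensors tested, 5 were higher and 2 lower (15.6% and 6.25%), near the 11.3% and 6.36% of all probes. Of the 18 well above background on all 6 arrays, 1 was higher and 2 lower, with a median of -0.12. Of 28 Golgi glycosyltransferases and sulfotransferases tested, 7 were higher and 3 lower (25% and 10.7%). The rises went to 3 without d 2 dam 2 and 4 without d 9 dam 2, with 1 fall without either. C1galt1, which builds the core of mucin-type O-glycans, read 5.75, 5.54 and 5.63 on d 2 and 6.72, 7.16 and 6.77 on d 9 (1.24, SE 0.15, limma adjusted p = 0.00386). St6galnac2, a sialyltransferase that caps such glycans early, read 5.58, 5.36 and 5.47 on d 2 and 3.32, 3.43 and 2.38 on d 9 (-2.43, SE 0.31, limma adjusted p = 0.00436). The days did not overlap for either enzyme, both stayed called with slide as a block (0.0446 and 0.0495), and St6galnac2 remained below 0 with spike-in scaling (-1.21).

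Of 17 circadian clock genes, 4 were higher and 2 lower (23.5% and 11.8%, against 11.3% and 6.36% of all probes). Of the 11 well above background on all 6 arrays, 2 were higher and 1 lower. In the whole list there were 2 rises without d 2 dam 2, d 9 dam 2 or d 9 dam 3. Bhlhe41, a repressor of the clock, read 7.79, 8.48 and 7.92 on d 2 and 6.27, 5.36 and 5.96 on d 9 (-2.2, SE 0.36, limma adjusted p = 0.00806), and Npas2, a partner of the core activator, read 6.04, 6.45 and 6.57 on d 2 and 7.8, 8.02 and 7.38 on d 9 (1.38, SE 0.2, limma adjusted p = 0.00571). Neither was called with slide as a block (0.0994 and 0.0815). Among innate sensors, the adaptor Traf3 rose by 2.03 (SE 0.31, limma adjusted p = 0.00663). The transcription factor Irf5, not well above background on any d 2 array, was at least 1.28-fold higher on d 9 (limma adjusted p = 0.0107). Neither Traf3 nor Irf5 was called with slide as a block, and Irf5 was not called with normexp background correction (limma adjusted p = 0.114).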
